A study of Mus musculus and Rattus norvegicus with 28 samples.

Results

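Atp6v0d2, Mmp12, Gpnmb, Ctsk, Acp5, Trem2, Spp1 and Cd68 are 8 genes that macrophages and their bone-resorbing relatives, the osteoclasts, use to acidify and fill lysosomes, to break down matrix and to sense lipid-laden debris. They were taken by gene symbol from 55450 mouse and 32623 rat genes, and all 8 were found in both species and passed the filter on low values in both. Atp6v0d2 and Mmp12 were chosen because their level fell with trichostatin A (TSA) in rat, and the other members were chosen with the rat values known. The rat values are therefore given as a description with no test, while the mouse time course and the mouse chromatin data were no part of the stated rule, although earlier results of these data were known when the genes were chosen.

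Mouse ventricular cells came from wild-type C57BL/6 animals of both sexes at embryonic day 18.5 (E18.5) and postnatal days 1, 3 and 7 (P1, P3 and P7), with 2 RNA-seq and 2 ATAC-seq libraries at each age. Rat cells were neonatal ventricular cardiomyocytes of Sprague Dawley pups at postnatal day 1, cultured and given either 100 nM TSA, an inhibitor of class I and II histone deacetylases, or its solvent DMSO from the day after plating, with 3 RNA-seq libraries each. All cells were labelled cardiomyocytes, were freed from left ventricles with trypsin and collagenase and were enriched only by discarding the cells that attached first, so other cell types of the heart can remain. The labels do not say whether libraries of a group came from separate animals or cultures, and p-values then measure the spread between libraries only.

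In a phagocyte, the vacuolar H+-ATPase (V-ATPase) pumps protons into the lysosome, and the low pH activates the proteases and hydrolases inside it. Macrophages that take up dead cells and lipid raise these genes together with surface receptors for lipid and apoptotic material and with secreted factors that act on matrix. Resident macrophages are a normal part of the perinatal heart and remain as a minor cell type in cultures of neonatal ventricular cells.

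Some facts of the whole data set bear on these genes. Depth was 29.3 to 37.5 M reads per library in mouse and 28.2 to 38.5 M in rat. The summed level of 9 cardiomyocyte genes was 16687 and 20764 FPKM (fragments scaled to transcript length and library size) at E18.5 but 1332 and 573 at P7. Over the same ages the sum of 7 fibroblast genes went from 423 and 434 to 2837 and 3569, so the P7 RNA libraries stand against their label. The paper instead reported high purity of the P7 cells by staining for the cardiomyocyte marker cTnT. In rat, DMSO replicate 3 stood apart. Its Spearman correlation with DMSO replicates 1 and 2 was 0.956 and 0.951, whereas those replicates correlated at 0.985 with each other. The fold of each member is given below with and without that library.

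The rat values of the genes that act inside the lysosome come first. Atp6v0d2, the d2 subunit of the membrane sector of the V-ATPase and the form made by macrophages and osteoclasts, was at 6.97, 6.87 and 2.72 FPKM in the 3 DMSO libraries. It was at 0.202, 0.206 and 0.215 FPKM in the 3 TSA libraries. The groups did not overlap, and the mean with DMSO was 26.5 times the mean with TSA, or 33.2 times with DMSO replicate 3 left out and 13.1 times for that library alone. These levels rested on about 130.3 to 335 reads with DMSO and 7.96 to 11.6 reads with TSA, so the low value has a wide counting error.

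Ctsk encodes cathepsin K, the collagen-degrading lysosomal protease of osteoclasts. It was at 34.7, 37.9 and 34.2 FPKM with DMSO and at 13.7, 14.3 and 10.1 with TSA. The DMSO libraries lay close together and all above the TSA libraries, and the DMSO mean was 2.79 times the TSA mean, or 2.85 times without DMSO replicate 3. Ctsk was the member for which DMSO replicate 3 differed least from the other DMSO libraries, at 0.941 of their mean. The sum of 6 fibroblast genes in that library also lay between those of the other DMSO libraries (6662 FPKM against 6328.5 and 6882). Which cell type made the Ctsk RNA was not tested. Acp5, the tartrate-resistant acid phosphatase, did not share this pattern. It was at 8.78, 7.20 and 5.85 FPKM with DMSO and 8.86, 6.48 and 9.28 with TSA. The groups overlapped, and the mean was higher with TSA, at 8.21 ± 1.51 (SD, n = 3) against 7.28 ± 1.47. The DMSO mean was 0.887 of the TSA mean, and 0.974 of it without DMSO replicate 3. Cd68, a glycoprotein of the late endosome and lysosome membrane used as a macrophage marker, was at 104, 113 and 40.6 FPKM with DMSO and 44.0, 37.9 and 29.8 with TSA. TSA replicate 1 lay above DMSO replicate 3, so the groups overlapped. The DMSO mean was 2.304 times the TSA mean, and 2.91 times without DMSO replicate 3.

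**Figure D1:**
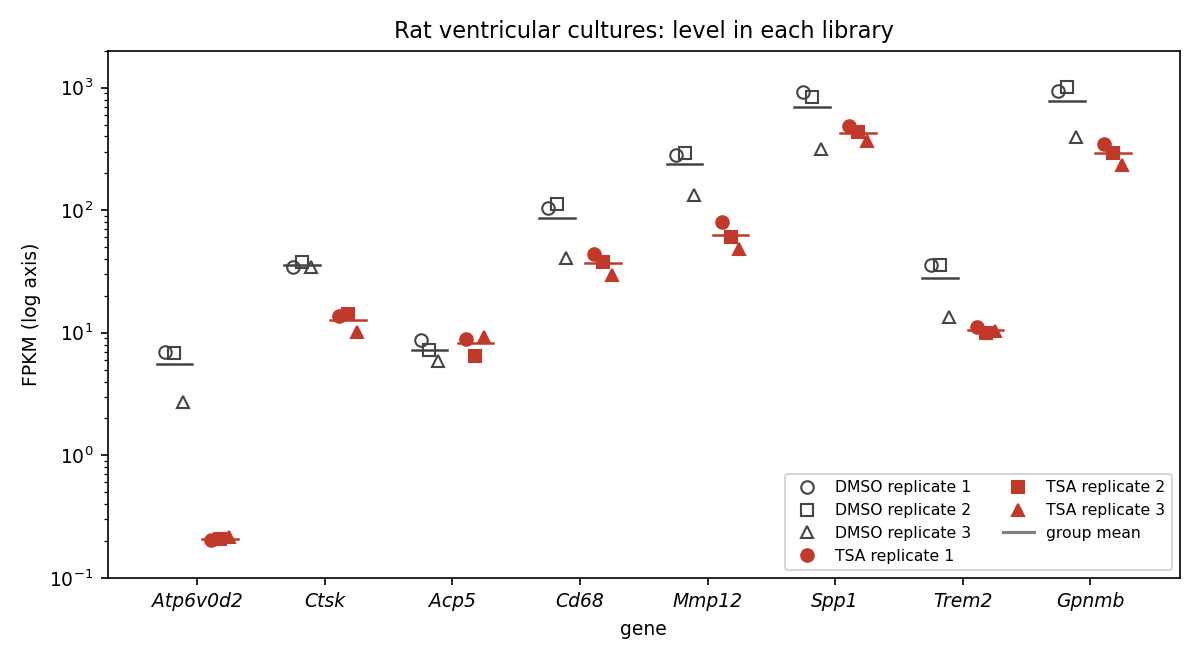
FPKM (log axis) of the 8 genes in each of the 6 rat libraries, open symbols for DMSO and filled symbols for TSA, with symbol shape giving the replicate number and bars the group means. Atp6v0d2 lies at 2.72 to 6.97 FPKM with DMSO and near 0.2 with TSA, Acp5 overlaps between groups, and DMSO replicate 3 lies below the other DMSO libraries for every gene, least so for Ctsk.

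Among the genes that act outside the lysosome, Mmp12, the macrophage metalloelastase, was at 284, 294 and 133 FPKM with DMSO. With TSA it was at 79.7, 60.1 and 47.8 FPKM, below every DMSO library. The DMSO mean was 3.79 times the TSA mean, and 4.62 times without DMSO replicate 3. Spp1, which encodes the secreted phosphoprotein osteopontin, was at 926, 839 and 314 FPKM with DMSO and 484, 433 and 370 with TSA. The DMSO mean was 1.62 times the TSA mean. DMSO replicate 3 lay below all TSA libraries, at 0.731 of their mean, whereas the mean of DMSO replicates 1 and 2 was 2.06 times theirs. The direction of Spp1 in the third DMSO library was thus opposite to that in the other two.

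The receptors were lower in every TSA library. Trem2, a lipid-sensing receptor of macrophages and microglia, was at 35.4, 35.5 and 13.3 FPKM with DMSO and 11.2, 9.999 and 10.2 with TSA. The DMSO mean was 2.68 times the TSA mean, 3.38 times without DMSO replicate 3 and only 1.27 times for that library alone. Gpnmb, a transmembrane glycoprotein of the endosome and lysosome that phagocytes raise under lysosomal stress, was the most abundant member in DMSO replicate 2, at 1020.0 FPKM. Its other DMSO values were 939 and 396, and its TSA values were 348, 293 and 233. The groups did not overlap, by a gap of 348 against 396. The DMSO mean was 2.69 times the TSA mean, and 3.36 times without DMSO replicate 3.

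In all, 5 of 8 members had TSA libraries that lay wholly below the DMSO libraries and 3 overlapped. The same holds for 10.1% of the 13625 genes tested, but the members were chosen on this contrast, so nothing is read from the difference. The median log2 fold change of the 8 was -1.27, on the log2(FPKM + 1) scale, beside 0.03 for all tested genes. By size of the fall, Atp6v0d2 ranked 3 and Mmp12 ranked 14 among 13625 genes, Ctsk 42, Gpnmb 57, Trem2 86, Cd68 129 and Spp1 606. Acp5 ranked 9178 and does not belong to genes lowered by TSA in these libraries.

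The macrophage genes of the same cultures were measured beside them. Of a list of 24 macrophage identity genes, 22 carried their symbol in rat and 18 passed the filter. The summed level of the list was 1142, 1174 and 557 FPKM with DMSO and 630, 538 and 478 with TSA. Lyz2, the macrophage lysozyme, alone averaged 649 ± 224 FPKM with DMSO and 347 ± 47.9 with TSA, and so makes up most of the sums. DMSO replicate 3 was low for the list as well and lay within the range of the TSA libraries. With 3 against 3 libraries, 1 gene of the list was called higher (C1qc) and 0 were called lower, where a call needed a limma adjusted p under 0.05 together with a change of more than 1 on the log2 scale. Across all tested genes 1.81% were called higher and 0.316% lower. The list median was -0.78, and 12 of the 18 genes had an unadjusted limma p under 0.05.

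The defining markers did not move as one. Csf1r, the receptor for the macrophage growth factor CSF1, was at 26.8 ± 10.2 FPKM (SD, n = 3) with DMSO and 10.9 ± 0.354 with TSA, with a log2 fold change of -1.15 ± 0.29 (SE) and a limma adjusted p of 0.0813. Ptprc, the pan-leukocyte marker CD45, had a log2 fold change of -0.84 ± 0.32 and an adjusted p of 0.208 (limma). Adgre1, the gene for the mouse F4/80 antigen, was at 24.3 ± 10.6 and 24.1 ± 5.76 FPKM. C1qa, a chain of complement C1q, was at 26.4 ± 10.9 and 26.5 ± 4.50. C1qc, another chain of the same protein, was higher with TSA, at 18.4 ± 0.876 against 5.62 ± 2.31 FPKM (limma log2 fold change 1.61 ± 0.25, adjusted p = 0.0224). With the replicate number as a block, 2 genes of the list were also called lower, Laptm5 and Itgam. Without DMSO replicate 3, 11 were called lower, with Csf1r and Ptprc among them. The 4 list genes under the filter, Cd163, Lyve1, F13a1 and Cx3cr1, stayed between 0.0 and 0.764 FPKM with DMSO and reached 3.20 FPKM at most with TSA (F13a1). In bulk RNA, fewer macrophages and less of these RNAs in each macrophage cannot be told apart.

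A ratio taken within each library shows how the members stood against the 18 macrophage genes. The ratio is the FPKM of a member divided by a mean of those genes. That mean is the geometric mean of FPKM + 1, with 1 subtracted afterwards, so it depends on the added 1 where genes are low. The ratio was chosen after the values were seen and has no test. For Mmp12 it was 13.7, 13.2 and 13.4 in the 3 DMSO libraries, so DMSO replicate 3 no longer stood apart, and 6.03, 5.29 and 5.03 with TSA. For Atp6v0d2 it was 0.334, 0.308 and 0.275 with DMSO and 0.0153, 0.0181 and 0.0227 with TSA. Gpnmb was at 40.1 to 45.8 times that mean with DMSO and 24.5 to 26.4 times with TSA. Cd68 was at 4.11 to 5.08 and at 3.14 to 3.34. Spp1 overlapped between groups, at 31.7 to 44.4 with DMSO and 36.6 to 38.9 with TSA. Ctsk was at 3.46 in DMSO replicate 3 against 1.67 and 1.70 in the other DMSO libraries, and at 1.04 to 1.26 with TSA. Csf1r itself was at 1.497 to 1.53 with DMSO and 0.854 to 1.12 with TSA, while Adgre1 went the other way, from 1.23 to 1.42 up to 1.89 to 2.22.

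**Figure D2:**
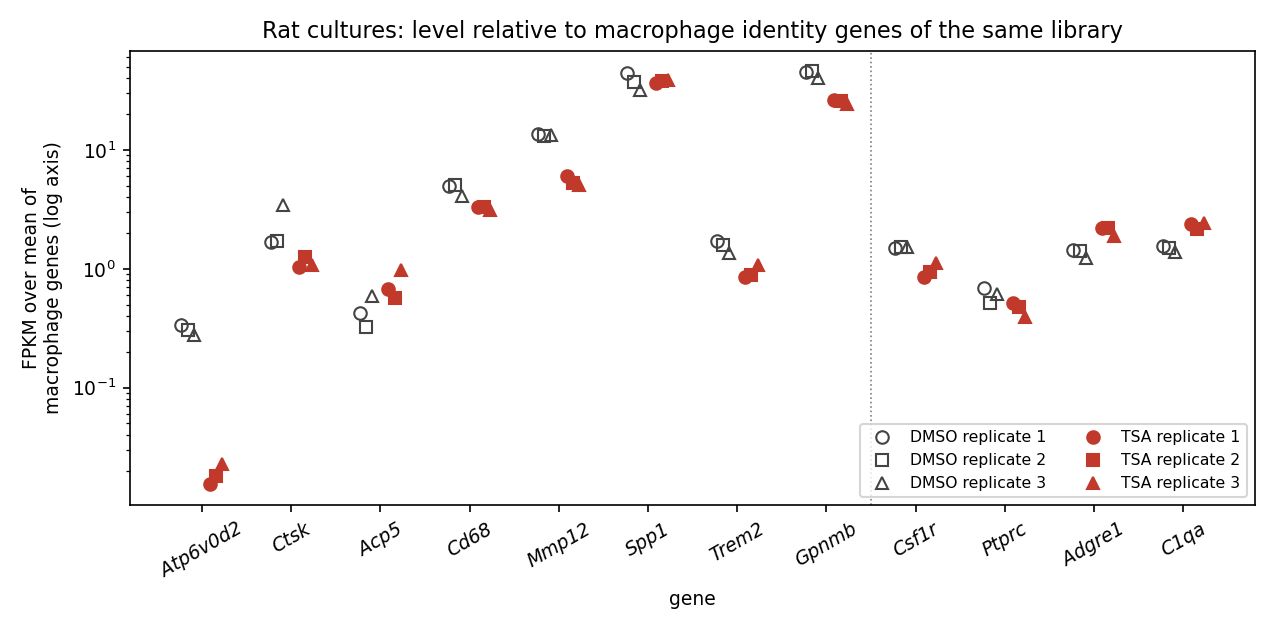
FPKM of each gene divided by the geometric mean FPKM of 18 macrophage identity genes in the same library (log axis), for the 8 members at the left of the dotted line and 4 macrophage markers at the right, open symbols for DMSO and filled for TSA. The 3 DMSO values of Mmp12 lie together at 13.2 to 13.7, Spp1 overlaps between groups, and Adgre1 and C1qa are higher with TSA.

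Related lists in rat were tested gene by gene. Of 15 tested genes for lipid handling in macrophages and for osteoclasts, 3 were called lower and 1 higher. With the replicate block 5 were called lower, Lgals3 and Mmp9 in addition. Ocstamp and Dcstamp, which encode the membrane proteins needed for fusion of osteoclast precursors, had log2 fold changes of -1.81 and -1.10. Both passed the filter only through the DMSO libraries, where they are high, so nothing is read from their calls. Ocstamp was at 3.21 ± 0.802 FPKM with DMSO and 0.188 ± 0.0638 with TSA. Dcstamp was low throughout, at 1.38 ± 0.282 FPKM with DMSO and 0.105 ± 0.0513 with TSA. Fabp5, a fatty acid binding protein, went from 168 ± 53.4 to 54.3 ± 7.13 FPKM (-1.57 ± 0.25, adjusted p = 0.0238, limma). Car2, a carbonic anhydrase that supplies protons for bone resorption and is also made by other cells, rose from 2.47 ± 0.609 to 7.51 ± 1.29 FPKM (1.299 ± 0.19, adjusted p = 0.0194, limma).

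Of 25 other lysosomal proteins 1 was called lower, Ctss, the cathepsin S of antigen-presenting cells, which went from 26.8 ± 10.2 to 6.94 ± 0.947 FPKM (limma log2 fold change -1.74 ± 0.30, adjusted p = 0.0304). The list median was -0.12. The 6 rat calls given here (C1qc, Ctss, Ocstamp, Dcstamp, Fabp5 and Car2) depended on single libraries, since all were lost without TSA replicate 1, TSA replicate 2 or DMSO replicate 1. Without DMSO replicate 2 only C1qc was kept, and without TSA replicate 3 only Car2 and Ocstamp. Of 17 other V-ATPase subunits 0 were called by limma in either direction, although 5 had an unadjusted p under 0.05, and their median was 0.01. Of 15 partners and relatives, which are receptor adaptors, metalloproteinases and their inhibitors, integrins and the MITF family of transcription factors, 0 were called by limma and 4 had an unadjusted p under 0.05. Without DMSO replicate 3, Tyrobp, the adaptor through which Trem2 signals, and Syk, the kinase downstream of it, were called lower. The sums of 8 cardiomyocyte genes were 7187 to 7797 FPKM with DMSO and 7330.0 to 10290.0 with TSA. Those of 6 fibroblast genes were lower in every TSA library, at 6328.5 to 6882 FPKM with DMSO and 3539 to 5914 with TSA. Of these 6 genes, limma called 0 in either direction. The part of either cell type in these results was not tested. Lymphocyte markers were listed at 0 in every DMSO library, and the sum of 5 neutrophil markers was at most 0.646 FPKM.

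The mouse time course asks how the same genes behave in the heart around birth. Each of the 6 members at 1 FPKM or more in both E18.5 libraries exceeded those values in both libraries of every postnatal age. With 2 against 2 libraries this holds for 43.5% of all tested genes at P1, 46.3% at P3 and 45.6% at P7. Of the 6 members that were at 1 FPKM or more in both E18.5 libraries, limma called 3 higher at P1, 5 at P3 and 3 at P7, where the shares of all genes called higher were 10.1%, 13% and 15.4%. Atp6v0d2 and Mmp12 passed the filter only through postnatal libraries and are described separately.

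The largest rises among these 6 were those of Gpnmb and Spp1. Gpnmb was at 6.22 and 2.83 FPKM in the E18.5 libraries, 105 and 62.4 in the P1 pair, 112 and 79.4 in the P3 pair and 83.2 and 62.3 in the P7 pair. It had thus reached its postnatal level by P1, when its log2 fold change over E18.5 was 3.96 ± 0.35 (SE, limma adjusted p = 0.000177). Spp1 was at 4.28 and 3.71 FPKM in the E18.5 libraries, 58.9 and 76.7 in the P1 pair, 170 and 97.7 in the P3 pair and 94.0 and 113 in the P7 pair. Its log2 fold changes over E18.5 at P1, P3 and P7 were 3.77 ± 0.26, 4.71 ± 0.26 and 4.38 ± 0.26 (limma adjusted p = 5.8e-05, 1.77e-05 and 1.26e-05). From P1 to P7 the log2 fold change was -0.16 for Gpnmb and 0.61 for Spp1, and neither passed the test (limma adjusted p = 0.804 and 0.15).

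Ctsk was at 9.12 and 7.81 FPKM in the E18.5 libraries, 31.1 and 15.8 in the P1 pair, 42.7 and 41.7 in the P3 pair and 44.6 and 46.5 in the P7 pair. Its log2 fold change over E18.5 was 1.2996 ± 0.26 at P1 and 2.301 ± 0.26 at P7 (limma adjusted p = 0.00588 and 0.000196). The rise from P1 to P7, 1.00 ± 0.26 (adjusted p = 0.0339, limma; 3.45% of all genes were called higher there), was lost without the filter on low values (adjusted p = 0.131) and in 7 of the 8 fits that left out 1 library. It was kept without P1 replicate 1.

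Trem2, Cd68 and Acp5 changed less. Trem2 was at 1.25 and 1.31 FPKM in the E18.5 libraries, 2.03 and 3.64 in the P1 pair, 4.82 and 4.05 in the P3 pair and 3.63 and 3.26 in the P7 pair. At P3 its log2 fold change was 1.25 ± 0.22 (limma adjusted p = 0.00232), and at P7 it was 0.96 ± 0.22, under the size needed for a call, with an adjusted p of 0.0064. Cd68 was at 9.87 and 11.1 FPKM in the E18.5 libraries, 13.8 and 16.4 in the P1 pair, 25.6 and 19.7 in the P3 pair and 18.6 and 17.9 in the P7 pair. It was called only at P3 (1.03 ± 0.16, adjusted p = 0.00144, limma), and the call was lost under median-of-ratios scaling (0.83), without E18.5 replicate 1 (0.96) and without P3 replicate 1 (0.85). Acp5 was at 2.47 and 3.39 FPKM at E18.5 and between 3.62 and 6.27 afterwards. Its log2 fold changes of 0.57, 0.52 and 0.46 at P1, P3 and P7 had limma adjusted p values of 0.112, 0.131 and 0.165.

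Mmp12 was at 0.632 and 0.245 FPKM in the E18.5 libraries, 8.32 and 17.9 in the P1 pair, 33.0 and 40.2 in the P3 pair and 55.4 and 55.5 in the P7 pair. The values of successive ages did not overlap. Mmp12 was also the member with the clearest rise between P1 and P7 (2.09 ± 0.31, limma adjusted p = 0.00298). Atp6v0d2 was listed at 0 in both E18.5 libraries and at 0.764 and 1.15 FPKM in the P1 pair, 2.40 and 1.08 in the P3 pair and 1.33 and 1.13 in the P7 pair. These postnatal values rested on 60.9 to 227 reads, and no fold is given against 0. No test against E18.5 is given for it, since it passed the filter through the postnatal libraries alone.

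**Figure D3:**
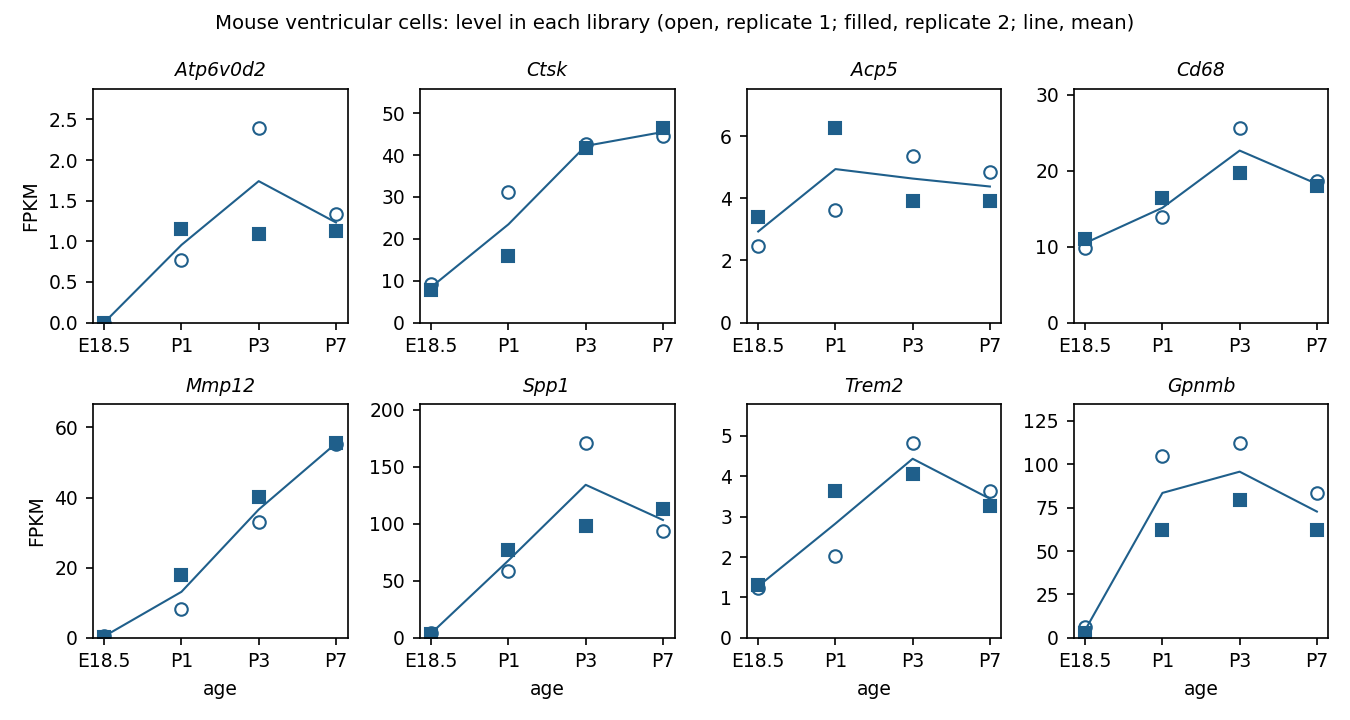
FPKM of the 8 genes in each mouse RNA-seq library by age, open symbols for replicate 1 and filled for replicate 2, with lines through the means of 2 libraries. Gpnmb and Spp1 are high from P1 on, Mmp12 climbs at each age to 55.4 and 55.5 FPKM at P7, Atp6v0d2 is listed at 0 at E18.5, and Acp5 changes least at P3 and P7.

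The order of the members differed between the rat DMSO cultures and mouse P7. In the rat DMSO cultures the means ran from Gpnmb (785 ± 339 FPKM, SD, n = 3) and Spp1 (693 ± 331), which did not differ beyond their spread, through Mmp12 (237 ± 90.4), Cd68 (85.9 ± 39.5), Ctsk (35.6 ± 2.02) and Trem2 (28.1 ± 12.8) to Acp5 (7.28 ± 1.47) and Atp6v0d2 (5.52 ± 2.43). Ctsk and Trem2 overlapped in that order, as did Acp5 and Atp6v0d2. At mouse P7 the means ran from Spp1 (103.3 ± 13.1, n = 2), Gpnmb (72.8 ± 14.8), Mmp12 (55.4 ± 0.0559) and Ctsk (45.5 ± 1.38) to Cd68 (18.3 ± 0.483), Acp5 (4.38 ± 0.652), Trem2 (3.44 ± 0.268) and Atp6v0d2 (1.23 ± 0.146). Ctsk thus stood above Cd68 at mouse P7 and below it in the DMSO cultures. At mouse E18.5 Ctsk was below Cd68 as well (8.47 ± 0.932 and 10.5 ± 0.838), and at P1 the values of both genes overlapped. The tables were normalized separately, so levels are compared only within a species.

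The macrophage markers split in mouse. Of 17 tested macrophage identity genes, limma called 4 higher and 3 lower at P7 against E18.5 (15.4% and 12.3% of all genes), and their median log2 fold change was -0.24 beside 0.14 for all tested genes. Another scaling moves that last value, to -0.01 with median-of-ratios factors and 0.35 with TPM, and the list median to -0.41 and 0.00. The summed level of the 24 genes was 95.0 and 85.2 FPKM in the E18.5 libraries and 137 and 179 in the P1 pair. It was 223 and 185 in the P3 pair and 157 and 129 in the P7 pair. Lyz2 alone averaged 9.86 FPKM at E18.5 and 97.6, 124 and 85.3 at P1, P3 and P7, so the rise of the sum follows this gene. At P7, 7 of the 17 tested genes had a positive log2 fold change and 10 a negative one. The called genes that rose were Lyz2, the macrophage lysozyme (9.86 ± 0.579 to 85.3 ± 13.5 FPKM, n = 2), Itgam, Mertk and Msr1. Those that fell were C1qb (12.2 ± 1.81 to 3.56 ± 0.398 FPKM), and F13a1 and Lyve1, a pair of genes known from resident macrophages. Itgam passed the filter only through postnatal libraries and F13a1 only through the E18.5 libraries, so nothing is read from their calls. Csf1r was at 2.87 ± 0.851 and 5.14 ± 0.813 FPKM at E18.5 and P7 (log2 fold change 0.68 ± 0.22, limma adjusted p = 0.0279), Adgre1 at 0.970 ± 0.440 and 2.41 ± 0.676 (0.80 ± 0.22, adjusted p = 0.0172), and C1qa at 7.78 ± 0.549 and 4.23 ± 0.340 (-0.75 ± 0.24, adjusted p = 0.0312). None of these 3 passed the size needed for a call. Cd163 and Timd4 were listed at 0 in both P3 and both P7 libraries, and Ptprc stayed at 0.297 and 0.382 FPKM at P7.

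The same ratio as in rat, here over 17 macrophage genes, gives the members against that background. Their mean, taken in the same way on FPKM + 1, lay between 3.30 and 5.32 in all libraries. Several of these genes are low, so it depends on the added 1. Spp1 was at 1.02 and 1.12 times the mean at E18.5 and at 24.8 and 32.9 times at P7. Gpnmb was at 1.49 and 0.857 times at E18.5 and at 21.97 and 18.2 times at P7. Mmp12 went from 0.151 and 0.0741 to 14.6 and 16.2. Cd68 was at 2.36 and 3.35 times the mean at E18.5 and 4.91 and 5.24 times at P7. Trem2 went from 0.298 and 0.396 to 0.959 and 0.952.

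Lysosomal genes in general did rise after birth. Of 26 other lysosomal proteins, limma called 18 higher and 0 lower at P7, with a median log2 fold change of 1.56. Among them were Ctsz, the cathepsin Z of myeloid and other cells (37.6 ± 2.83 to 201 ± 2.81 FPKM, 2.39 ± 0.12, adjusted p = 8.25e-06, limma), Ctsh (2.36 ± 0.17) and Hexa (2.03 ± 0.14). Of 18 other V-ATPase subunits 6 were called higher and 0 lower, with a median of 0.47, led by Atp6v1a (1.53 ± 0.23), Tcirg1, the membrane subunit of osteoclasts (1.40 ± 0.19), Atp6v1h (1.39 ± 0.23) and Atp6ap2 (1.23 ± 0.17). The ubiquitous d subunit, Atp6v0d1, named here after its values were seen, went from 36.7 ± 3.38 to 77.9 ± 4.32 FPKM. The d2 form was at 0 and 1.23 FPKM on average at these ages. Cardiomyocyte genes fell and fibroblast genes rose over the same ages, as given above, and their part in these rises was not tested.

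The lipid and osteoclast list split. At P7, 5 of 14 tested genes were called higher and 4 lower. Plin2, a coat protein of lipid droplets (1.97 ± 0.17), Lgals3 (1.90 ± 0.22), Fabp5 (1.55 ± 0.14) and Itgb3 (1.43 ± 0.24) led the rises, with limma adjusted p between 4.6e-05 and 0.00151. Car2 (-2.51 ± 0.21), Cd36 (-1.93 ± 0.17), Fabp4 (-1.39 ± 0.27) and Lpl (-1.06 ± 0.28) fell, and all of these are also made by muscle, endothelium or red cells. Fabp5 rose in mouse and fell in rat, while Car2 did the reverse. Among 18 partners and relatives 9 were called higher, with Mmp3, Mmp8 and Tfec in that count, and 2 lower. Mmp3 (0.108 ± 0.0612 to 498 ± 135 FPKM) and Timp1 (21.2 ± 4.39 to 454 ± 52.8 FPKM), a metalloproteinase and an inhibitor of the family that fibroblasts secrete, had the largest rises on the log2(FPKM + 1) scale. Of the MITF family, Mitf (6.62 ± 1.43 to 1.36 ± 0.0978 FPKM) and Tfeb (15.5 ± 0.143 to 6.17 ± 1.61) fell. Tfec, another gene of that family, went from 0.521 ± 0.437 to 12.3 ± 5.03 FPKM. Mmp3, Mmp8 and Tfec passed the filter only through postnatal libraries, so no test against E18.5 is given for them and nothing is read from their calls.

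**Figure D4:**
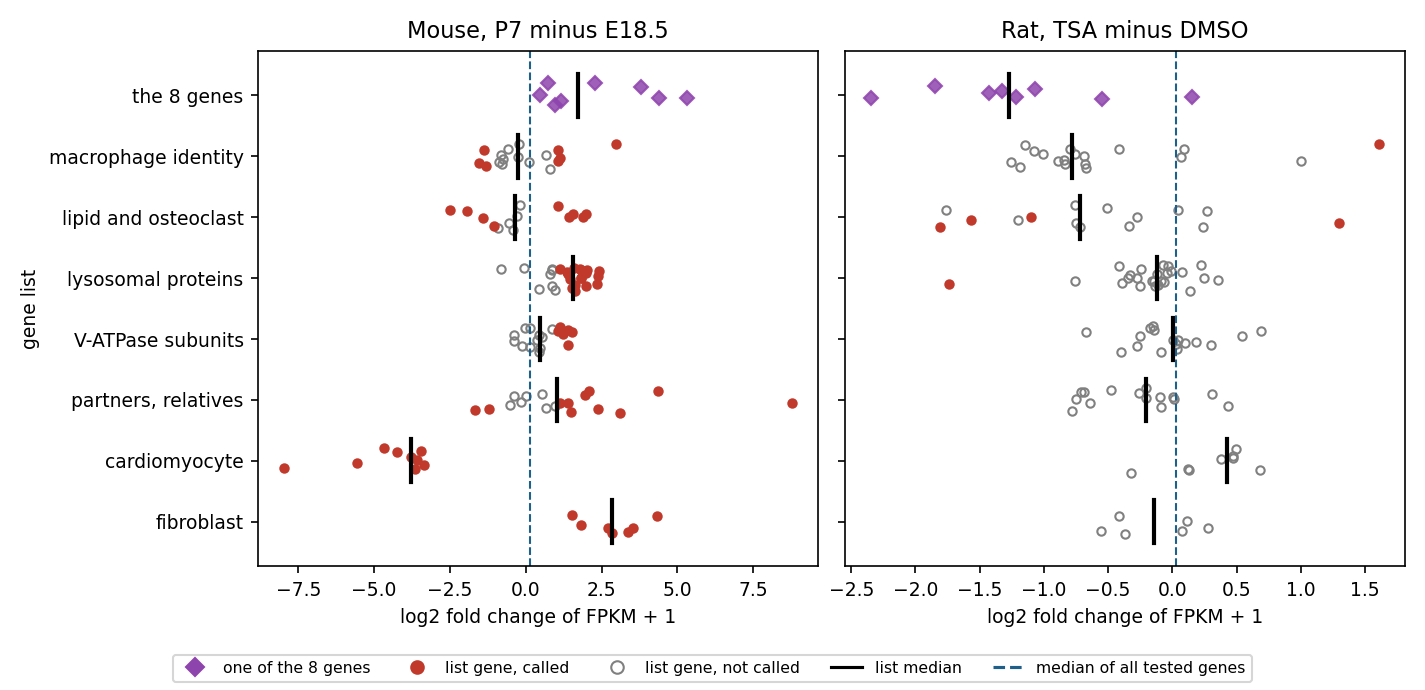
Log2 fold change of each gene on the log2(FPKM + 1) scale, mouse P7 minus E18.5 at the left and rat TSA minus DMSO at the right, for the 8 members (diamonds, not tested in rat) and the tested genes of 7 lists (circles, filled where called), with the list median as a bar and the median of all tested genes as a dashed line. The members lie to the right of that line in mouse, and 7 of 8 lie to the left of it in rat, while other lysosomal proteins centre at 1.56 in mouse and at -0.12 in rat.

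The genes whose pattern was most like that of the members were found over both species. For each species the members were scaled and averaged into a profile, and genes were ranked by the lower of their Pearson correlations with the profile over 8 mouse and over 6 rat libraries. Among 10463 genes the nearest were Itgb2, Ctla2a, Lyz2, Naglu, Ctdspl, Itgam, Ctsb, Serping1, Lamp1 and Ifi30, with lower correlations from 0.948 to 0.982. The libraries share ages, treatments and depth, so these values describe likeness only. Itgb2, the shared chain of the leukocyte integrins, was at 0.904, 2.77, 4.62 and 3.95 FPKM on average at E18.5, P1, P3 and P7. In rat it was at 36.7 with DMSO and 12.1 with TSA. Ctla2a has close relatives, so its reads may be split and its value is uncertain. Of the members, Trem2 had the highest lower correlation (0.968 in mouse and 0.994 in rat) and Acp5 the lowest (0.778 and 0.114). Each member is itself part of the profile, and members were chosen with the rat values known, so these values are only a description.

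Open chromatin at the members was read from the mouse peak lists. ATAC-seq marks DNA that the Tn5 transposase can reach, and each list holds the peaks of 1 library. A peak counts here when any of its bases lies within 2.5 kb of an annotated transcript start of the gene. None of the 8 members had such a peak in either E18.5 or either P1 library. Of all tested genes 67.1% and 62.4% had one at E18.5 and 69.2% and 43% at P1. In P3 replicate 1, 7 of 8 members had a peak, all but Mmp12, where the share of all genes was 91.7%. In P3 replicate 2 there were 4 (Acp5, Cd68, Ctsk and Gpnmb) where the share was 87.7%. In P7 replicate 1 there were 4 (Atp6v0d2, Cd68, Ctsk and Gpnmb) against 86.5%, and in P7 replicate 2 there were 3 (Cd68, Ctsk and Gpnmb) against 85.5%.

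The lists differ in length, from 13149 to 95257 peaks, and no read counts were used here. Among the 13149 peaks of highest score in each list, no member kept a peak except Cd68 in P7 replicate 1, while 40.8% to 64.0% of all tested genes had one in the 4 later lists. By rank in their own list the members' peaks lay from 22.2% to 95.3% from the top. Of 17 tested macrophage identity genes 1, 1, 2 and 1 had a peak in the E18.5 and P1 lists, 9 and 6 at P3, and 4 and 3 at P7. Of 26 other lysosomal proteins 19, 19, 21 and 14 had one at E18.5 and P1 and 24 or 25 in each later list.

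On mm10, Gpnmb lies at chr6:49036546-49070929 (plus strand), Cd68 at chr11:69664213-69666153 (minus), Ctsk at chr3:95499256-95509362 (plus), Atp6v0d2 at chr4:19876841-19922605 (minus) and Mmp12 at chr9:7344381-7369499 (plus). The Gpnmb summits lay 15 bp inside, 22 bp before, 22 bp before and 413 bp inside the nearest transcript start in the 4 later lists, with fold enrichments of 5.12, 5.58, 4.72 and 3.16, in an exon or just outside the gene. At Cd68 a summit lay 48 to 233 bp before the start in all 4 lists, with a fold enrichment of 2.88 to 4.25. A second Cd68 peak, in 3 of the 4 lists, had its summit 2014 to 2055 bp past a start, which is beyond the 3′ end of this short gene. At Ctsk the summits lay 70, 175 and 988 bp before the start and 700, 480 and 465 bp inside it, the latter in an intron. Atp6v0d2 had summits 7 bp inside and 874 bp before its start in P3 replicate 1, with fold enrichments of 6.36 and 6.34. Its P7 peak lay 2740 bp before the start and reached the window only with its edge. Acp5 has several annotated starts, and its summits lay 131 to 1696 bp from one of them. Those of Acp5 also lie in an intron of 6530413G14Rik, an overlapping gene. The single peaks of Trem2 and Spp1, 60 and 2080 bp before their starts, had fold enrichments of 3.19 and 4.78.

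**Figure D5:**
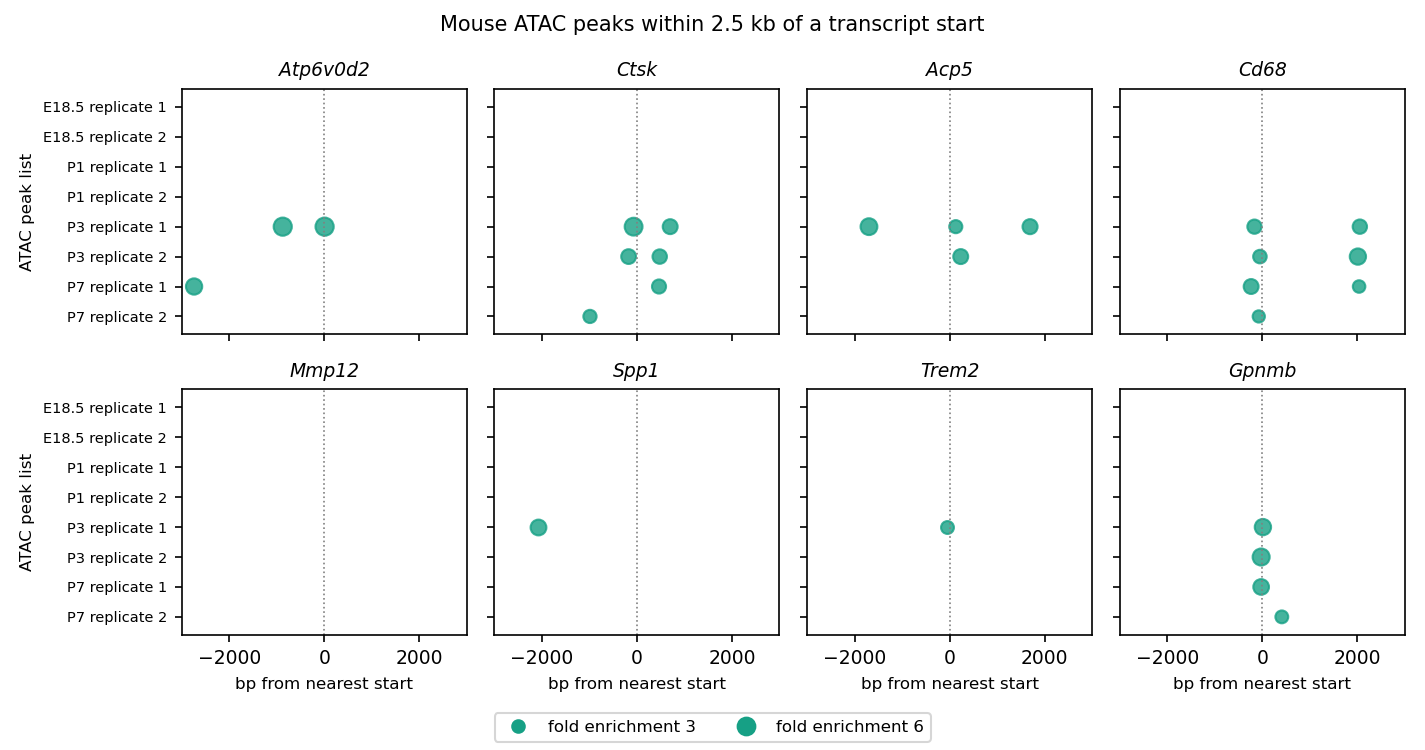
Summit of each ATAC-seq peak as distance in bp from the nearest transcript start of its gene, positive inside the gene, for the 8 members in the 8 mouse peak lists, with circle area set by the fold enrichment over background. No circle stands in the E18.5 and P1 rows, and Mmp12 has none at all.

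Promoter sequences of 7 members (11 annotated starts) were taken from RefSeq for GRCm38.p6, the build of the mouse files under another name, and Atp6v0d2 has no entry in that table. The member promoters, 250 bases before to 50 bases after a start, had a median GC content of 47.7% beside 52.7% for all 32851 promoters, and a median observed over expected CpG ratio of 0.242 beside 0.384. Short motifs were searched on both strands. TCATGTGA, the M-box bound by MITF-family factors, was found in 2 member promoters (Mmp12 and Acp5) and in 0.986% of all promoters. TGAGTCA, the AP1 site, was found in 3 (Cd68, Gpnmb and Mmp12) and in 5.2% of all. GAGGAAGT, a site of the myeloid factor PU.1, was found in 2 (Spp1 and the upstream start of Mmp12) and in 3.2% of all. TATAAA, the letters of the TATA box, was found in 2 and in 13.6% of all. It began 4 bases past the start in Mmp12 and 211 bases before it in Spp1. CACGTG, the E-box within the CLEAR element of lysosomal genes, was in 0 member promoters and in 7.15% of all. No matches overlapped. These are matches of letters and not shown sites of binding.

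The 5 mouse promoters that hold a match in the 250 bases before their start are given because they carry the motif letters, 5′ to 3′ on the strand of the gene, with matched letters in capitals. Mmp12 (chr9:7347124-7347373, plus strand) has the M-box 84 bases and the AP1 site 44 bases before its start. Its upstream start (chr9:7344147-7344396, plus strand) has the PU.1 site 88 bases before. Acp5 (chr9:22130599-22130848, minus strand) has the M-box 91 bases before its most internal start. Cd68 (chr11:69666171-69666420, minus strand) has the AP1 site at 149 and 24 bases. Spp1 (chr5:104434861-104435110, plus strand) has the letters TATAAA at 211 and the PU.1 site at 113 bases.
Mmp12: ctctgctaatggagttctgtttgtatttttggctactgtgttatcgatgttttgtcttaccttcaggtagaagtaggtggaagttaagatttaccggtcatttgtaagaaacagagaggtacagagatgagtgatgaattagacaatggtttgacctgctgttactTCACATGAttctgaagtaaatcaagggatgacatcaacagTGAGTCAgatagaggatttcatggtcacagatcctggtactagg
Mmp12, upstream start: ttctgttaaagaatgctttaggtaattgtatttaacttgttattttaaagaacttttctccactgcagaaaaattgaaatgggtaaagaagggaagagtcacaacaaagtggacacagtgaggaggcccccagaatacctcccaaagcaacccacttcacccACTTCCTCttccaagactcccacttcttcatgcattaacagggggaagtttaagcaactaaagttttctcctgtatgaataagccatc
Acp5: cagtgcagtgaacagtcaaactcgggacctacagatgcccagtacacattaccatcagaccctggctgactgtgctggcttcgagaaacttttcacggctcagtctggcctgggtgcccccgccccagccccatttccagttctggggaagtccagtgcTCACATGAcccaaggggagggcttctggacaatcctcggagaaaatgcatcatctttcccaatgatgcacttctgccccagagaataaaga
Cd68: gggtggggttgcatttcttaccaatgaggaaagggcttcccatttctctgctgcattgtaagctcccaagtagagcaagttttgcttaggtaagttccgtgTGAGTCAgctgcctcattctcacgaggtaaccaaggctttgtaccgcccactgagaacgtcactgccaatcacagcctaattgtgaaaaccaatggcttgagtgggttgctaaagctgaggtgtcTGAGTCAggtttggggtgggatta
Spp1: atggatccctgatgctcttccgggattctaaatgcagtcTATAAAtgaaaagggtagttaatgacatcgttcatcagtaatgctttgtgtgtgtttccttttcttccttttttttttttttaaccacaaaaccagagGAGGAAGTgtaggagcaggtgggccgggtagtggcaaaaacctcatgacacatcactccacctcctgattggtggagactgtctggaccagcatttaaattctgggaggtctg
Of these genes, Mmp12 rose at each age without a peak in any list, whereas Cd68 had a peak over the printed stretch in all 4 later lists. Acp5, the other gene with an M-box, had the smallest log2 fold change of the members over E18.5 at P3 and P7 in mouse. It had no fall with TSA in rat. Mmp12 was chosen for its fall with TSA, so nothing is read from their difference in rat. The part of the M-box was not tested.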

How the data were processed

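RNA was measured in 8 mouse and 6 rat libraries and open chromatin in 8 mouse libraries. HiChIP samples were not analysed here. Per the submitters' processing notes and the file headers, the authors aligned RNA reads with HISAT2 2.1.0 and estimated transcripts with StringTie (GENCODE vM21 on mm10 for mouse, Ensembl on Rnor_6.0 for rat), and they called ATAC-seq peaks in each library with MACS2. The deposited transcript files hold FPKM, TPM and coverage, with no read counts. The deposited peak lists hold a score, a ratio (fold enrichment over background), and −log10 p-values and q-values.

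FPKM was summed over the transcripts of each gene. Read numbers were estimated from coverage at a read length of 150 bases, so depth is approximate. Genes at 1 FPKM or more in at least 2 mouse or 3 rat libraries were tested (13979 and 13625). Log2(FPKM + 1) values were fitted with limma 3.58.1 in R 4.3.3, with 1 fit for all mouse ages and 1 for rat, and p-values were adjusted by Benjamini-Hochberg over all tested genes. Calls required an adjusted p under 0.05 together with a change of more than 1 on the log2 scale. Fold changes on this scale understate the change of low genes. Summaries used Python 3.11.15 and pandas 2.3.3. The fit was tested on simulated data. The authors' own tests were not used.

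Replicate numbers are shared between rat groups. Deviations of same-numbered rat libraries from their group means correlated at 0.224, 0.194 and 0.346, so the numbers were taken to pair the libraries as a hint from the data. DMSO replicate 2 with TSA replicate 1 (0.167) and DMSO replicate 1 with TSA replicate 2 (0.0904) were positive too. Pairs of replicate 3 with another number lay between -0.270 and -0.200, so the hint rests mainly on replicate 3. The labels do not state such a pairing. The fit without the block is the main one.

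The members and gene lists were chosen with earlier results of these data known. Genes named are every member, the called genes of each list (at most 4 by size in each direction), Csf1r, Adgre1, Ptprc and C1qa, and the 10 genes most like the members. Laptm5, Itgam, Lgals3 and Mmp9 (in rat), Mmp8 (in mouse), Tyrobp, Syk and Atp6v0d1 were named after their values were seen. One result that this rule would name is not reported here. Alternatives were another pseudocount (0.1), no filter, TPM, median-of-ratios scaling, the replicate block, each library left out and, for peaks, other windows and thresholds.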

Additional observations from a re-analysis of the deposited data

How the results depend on the processing

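Depth limits the lowest values, above all Atp6v0d2 in rat with TSA and in mouse. Leaving out 1 library each time moved the members called between P1 and P7 in mouse over 1 to 2, and no filter gave 1. The mouse macrophage list had 3 to 8 calls. In rat the macrophage list had 0 to 12, other lysosomal proteins 0 to 1 (0 without the filter), the lipid and osteoclast list 0 to 4, and partners 0 to 2. Atp6v0d2, Ocstamp and Dcstamp gave no value when a DMSO library was left out, because the filter needs 3 libraries. With the replicate block, the rat macrophage list had 3 calls. In mouse, same-numbered libraries correlated between -0.096 and 0.171, so they share only a number, and the block moved the P7 calls from 3870 to 3875. Over all rat genes the 290 calls became 72 without DMSO replicate 1, 125 without DMSO replicate 2, 446 without DMSO replicate 3, 140 without TSA replicate 3 and 0 without TSA replicate 1 or 2. With median-of-ratios scaling, 1726 mouse genes were called higher and 2095 lower at P7, against 2155 and 1715. Among equal numbers of top peaks, members with a peak numbered 0 at P3 replicate 1, 0 at P3 replicate 2, 1 at P7 replicate 1 and 0 at P7 replicate 2. In the upper 0.5 of each list there were 1 (Cd68) at P3 replicate 2 and 0 at P7 replicate 2. Atp6v0d2, Gpnmb, Ctsk, Acp5 and Cd68 kept a peak at P3 replicate 1, and Atp6v0d2, Gpnmb and Cd68 at P7 replicate 1. At this setting 83.1% and 74.2% of all tested genes had a peak in the P3 lists and 70.5% and 73.0% in the P7 lists. The log2 fold change reversed when 1 library was left out for P7 against P1 in Acp5 (-0.44 to 0.22, with 0.01 without P7 replicate 2), Gpnmb (-0.53 to 0.20, with 0.04 without P7 replicate 2) and Trem2 (-0.062 to 0.55). In rat it reversed for Adgre1 (-0.35 to 0.30, with -0.08 without TSA replicate 1) and C1qa (-0.31 to 0.30, with -0.04 without TSA replicate 1). None of these had passed the test. The causes were not tested.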
